A study of Mus musculus with 74 samples.

Results

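Metastatic spread of mammary tumors to the lung was followed here in FVB Her2 mice, by setting the mean expression of every gene in lung metastases (Lung met) beside that in mammary primary tumors (PT). All 18208 genes of the Her2 comparison were taken, with no selection on their values, out of 38365 gene identifiers in the 4 comparisons of the series that were used. The series holds 74 samples, of which 12 are from this model: 6 PTs and 6 Lung mets, labelled MMTV-Her2. Per the study's methods, male FVB/N-Tg(MMTVneu)202Mul/J mice were bred to female FVB/NJ mice, and female progeny that carried the transgene were used, so every animal in both groups has the transgene. Neither the ages of the animals nor a treatment is given in the labels. The MMTV promoter directs the transgene, a rat neu gene (the relative of mouse Erbb2), mainly to mammary epithelium. PTs were removed by surgery from animals with a single lesion, the animals were then aged further, and metastases were collected at the end, so tissue and time of collection cannot be told apart. Tumor pieces of a mouse were combined and whole metastatic nodules were used, so each sample holds tumor cells together with the stroma, vessels and blood cells around them.

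The 3 other models used served as reference: FVB C3Tag (7 PTs and 7 Lung mets, a C3(1)-TAg transgene), and the BALB and SEAGN PyMT-F1 crosses (6 and 6 each, MMTV-PyMT males bred to BALB/cJ or Sea/GnJ females). For some PyMT-F1 samples the labels disagree on the strain, and the sample titles were followed. Each value below is a least-squares mean of 1 tissue fitted by the authors on their normalized counts. It carries no SD and no n, and no value of a single sample entered, so whether a difference exceeds the spread between animals was not tested, and whether 1 library sets a mean cannot be seen. The quotient is the Lung met mean divided by the PT mean, and past 2-fold means a quotient of at least 2 or at most 0.5. A gene said to stand at a value has that value as its quotient. The words higher and lower describe these means only. In bulk tissue, fewer cells of a type and less RNA per cell cannot be told apart.

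HER2, the product of Erbb2, is a receptor tyrosine kinase of the epidermal growth factor receptor family that has no known ligand of its own and signals by pairing with its relatives. Its overproduction drives a class of human breast cancers, and in mice the neu transgene gives luminal-type mammary tumors. The lung, by contrast, is built of thin type 1 alveolar cells for gas exchange, type 2 alveolar cells that make surfactant, and a dense capillary bed, while a tumor in the mammary gland lies among fibroblasts, fat and, next to the body wall, skeletal muscle.

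Most genes had nearly the same mean in both tissues. The median log2 quotient over all 18208 genes was -0.0013, and the 5th and 95th percentiles were -0.47 and 0.62. Of all genes, 434 (2.38%) were at least 2-fold higher in Lung met and 260 (1.43%) at least 2-fold lower, and these shares are the background for each count below. Quotients past 2-fold were concentrated among genes of low level. With genes sorted by the average of both means into 5 bins of equal size, the share past 2-fold either way was 7.19%, 8.02%, 2.39%, 0.687% and 0.769% from the lowest bin to the highest. A quotient of 2 therefore stands further from the bulk of genes at a high level than at a low one.

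**Figure D1:**
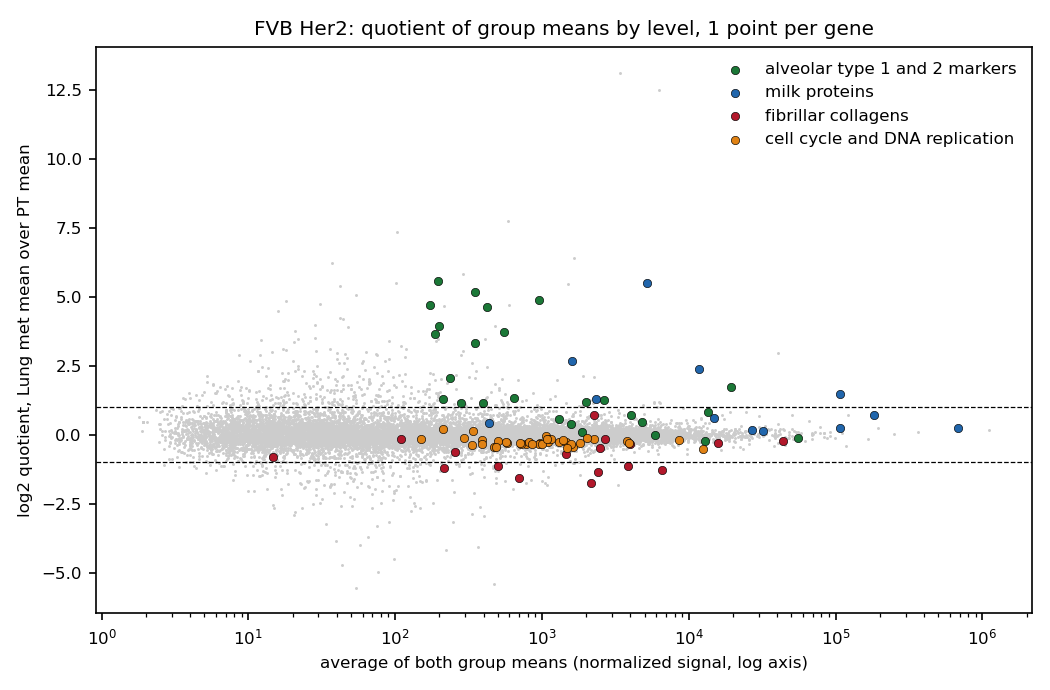
Log2 quotient of the Lung met mean over the PT mean (vertical axis) against the average of both means (horizontal log axis) for every gene in FVB Her2, with 4 gene lists in color and dashed lines at 2-fold. Alveolar markers reach 5.60 on the log2 scale, the milk protein gene Glycam1 lies at 5.53, collagens extend down to -1.75, and all 38 cell cycle genes lie between the dashed lines.

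The driver itself was expressed at a similar mean in both tissues. Erbb2 (chr11:98412470-98437716, GENCODE M21 on GRCm38) had a mean of 99569.9 in PT and 114664 in Lung met, a quotient of 1.15. Reads of the rat transgene and of mouse Erbb2 cannot be told apart in this value. Of the 16 members of the ERBB receptor and ligand list with a value, out of 20 listed, none was past 2-fold and the median log2 quotient was -0.047. Egfr, the receptor for EGF, had a quotient of 1.06, and Erbb3, the kinase-impaired partner of HER2, one of 0.885. The ligand nearest to the 2-fold line was Nrg1, which binds ERBB3 and ERBB4, with 68.6 in PT and 137 in Lung met, a quotient of 1.99. Egf lay furthest on the other side, at 1132 in PT and 674 in Lung met, a quotient of 0.596.

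Identity genes of the mammary luminal lineage were likewise near 1. Of 12 members with a value, 1 was past 2-fold higher and none lower, with a median of -0.072. The keratin gene Krt8 had 15220.1 in PT and 14989 in Lung met, and the epithelial adhesion gene Epcam had 49467 in PT and 46274 in Lung met. Gata3, a transcription factor of luminal cells, had a quotient of 0.937. The exception was Krt19, the keratin of simple epithelia, with 72.3 in PT and 1014 in Lung met, a quotient of 14.0. Basal and myoepithelial genes had 3 of 10 past 2-fold and a median of 0.78, or 0.50 over the 7 with an average mean of at least 50. Trp63, the transcription factor of basal epithelium, had 115 in PT and 255 in Lung met, while the basal keratin gene Krt14 was low in both tissues, at 15.6 in PT and 33.0 in Lung met. The basal keratin gene Krt5 has no row, and the members Acta2, Myh11 and Cnn1 also belong to the smooth muscle and pericyte list. Trp63 and the basal keratins also mark basal cells of the airways, and the source of these transcripts was not tested.

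Milk protein genes were higher in the metastases. All 12 listed genes had a value, 5 of them (41.7% against 2.38% of all genes) were at least 2-fold higher, none was at least 2-fold lower, and every quotient was above 1. The largest was that of Glycam1 (chr15:103562759-103565081), a secreted mucin-like glycoprotein of milk, with 219 in PT and 10088 in Lung met, a quotient of 46.1. Wap, the whey acidic protein, had 433 in PT and 2767 in Lung met, a quotient of 6.39. Lactoferrin, the iron-binding protein encoded by Ltf, had 3777 in PT and 19792 in Lung met, a quotient of 5.24. Lactoferrin is also made by neutrophils, whose markers are described further on. The caseins, which form the micelles of milk, were split by size of the quotient. Csn2, the beta-casein gene (chr5:87692624-87699630), had 56712 in PT and 156724 in Lung met, a quotient of 2.76, and Csn1s2b had one of 2.49. By contrast Csn3, the kappa-casein gene, had 616615 in PT and 739326 in Lung met, a quotient of 1.20, and Csn1s1 had one of 1.19. Lalba, which encodes the lactose synthase cofactor alpha-lactalbumin, stood at 1.10.

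Promoter windows of the milk protein genes are shown because every gene of this list had a quotient above 1. The transcription factor STAT5, which prolactin activates, is known to bind TTCNNNGAA, a palindrome that reads the same on both strands. RefSeq windows of 300 bases (most of them before the start and the last 50 after it, GRCm38.p6) were at hand for 8 of the 12 milk genes, and 4 of these 8 windows (50%: Csn1s1, Csn1s2a, Csn2 and Glycam1) hold this motif, against 2726 of all 32851 windows (8.30%). Wap, Lalba, Ltf and Olah have none. Of the genes with this motif, Csn2 and Glycam1 were past 2-fold, and Csn1s1 and Csn1s2a were not. Of those without it, Wap and Ltf were past 2-fold, and Lalba and Olah were not. A second motif, CAAGTG on either strand, the core letters bound by NKX2-1, a transcription factor of lung epithelium, was searched in the 27 windows of 21 of 26 alveolar genes and was found in 4 (14.8%: Hopx, Scnn1g, Spock2 and Lyz2), against 4455 of all windows (13.6%). With the sets exchanged, TTCNNNGAA was in 1 alveolar window (3.70%, Lamp3) and CAAGTG in 2 milk windows (25%, Wap and Lalba). Both motifs, and the windows printed, were chosen after the values of the lists were seen. Matches of the 2 motifs cannot share a base. These are matches of letters, tested neither for binding nor against chance. In the windows below, capitals mark the motif searched for that set (TTCNNNGAA in the milk genes, CAAGTG or its reverse complement in the alveolar genes), and Wap and Ager are given as members with no match.
Csn2 (chr5:87699376-87699675, minus strand): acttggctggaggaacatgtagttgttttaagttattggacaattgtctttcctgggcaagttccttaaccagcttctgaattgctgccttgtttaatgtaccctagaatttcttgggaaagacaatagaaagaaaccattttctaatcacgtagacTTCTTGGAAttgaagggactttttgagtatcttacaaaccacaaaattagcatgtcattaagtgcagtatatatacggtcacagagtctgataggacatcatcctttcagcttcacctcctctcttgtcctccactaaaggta
Glycam1 (chr15:103565032-103565331, minus strand): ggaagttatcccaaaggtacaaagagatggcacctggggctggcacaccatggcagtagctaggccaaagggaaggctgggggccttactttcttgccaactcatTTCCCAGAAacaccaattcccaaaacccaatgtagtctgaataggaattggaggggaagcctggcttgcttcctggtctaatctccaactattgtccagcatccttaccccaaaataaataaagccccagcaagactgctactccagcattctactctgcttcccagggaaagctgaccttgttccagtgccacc
Wap (chr11:6638600-6638899, minus strand): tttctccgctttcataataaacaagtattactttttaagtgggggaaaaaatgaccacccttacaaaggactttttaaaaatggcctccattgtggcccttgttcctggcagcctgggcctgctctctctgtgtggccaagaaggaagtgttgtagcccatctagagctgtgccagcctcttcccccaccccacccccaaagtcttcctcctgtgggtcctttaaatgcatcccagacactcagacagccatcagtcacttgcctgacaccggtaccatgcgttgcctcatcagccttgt
Hopx (chr5:77095218-77095517, minus strand): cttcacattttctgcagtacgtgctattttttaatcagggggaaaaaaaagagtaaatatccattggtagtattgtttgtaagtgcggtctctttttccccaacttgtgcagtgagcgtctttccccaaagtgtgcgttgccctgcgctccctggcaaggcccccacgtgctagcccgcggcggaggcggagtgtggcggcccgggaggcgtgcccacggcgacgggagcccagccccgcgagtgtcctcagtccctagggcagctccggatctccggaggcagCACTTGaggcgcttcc
Ager (chr17:34597600-34597899, plus strand): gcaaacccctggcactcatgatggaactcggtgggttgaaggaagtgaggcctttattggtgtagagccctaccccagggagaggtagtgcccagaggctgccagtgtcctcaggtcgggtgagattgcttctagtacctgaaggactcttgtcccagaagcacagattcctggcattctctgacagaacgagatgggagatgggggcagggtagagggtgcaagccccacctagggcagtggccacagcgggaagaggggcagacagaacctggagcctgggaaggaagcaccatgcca
The match begins at base -93 from the start of Csn2 and at base -145 from that of Glycam1. In Hopx, which has 2 windows, it begins at base 34, after the start.

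Markers of alveolar epithelium were far higher in Lung met. For type 1 cells 11 of 16 genes with a value (of 18 listed) were at least 2-fold higher and none at least 2-fold lower, with a median log2 quotient of 1.68. Ager, the receptor for advanced glycation end products and a defining marker of these cells (chr17:34597862-34600936), had 62.5 in PT and 1847 in Lung met, a quotient of 29.5. Col4a3, a basement membrane collagen chain of the alveolar wall, had 7.96 in PT and 386 in Lung met, a quotient of 48.5. Rtkn2 and Spock2, of the same list, had quotients of 26.2 and 25.1. Hopx, a homeodomain protein of type 1 cells, stood at 4.17. Aqp5, a water channel of type 1 cells that secretory glands also make, went against the list, with 57616 in PT and 52674 in Lung met, a quotient of 0.914.

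For type 2 cells 6 of 10 genes were at least 2-fold higher, none was 2-fold lower, and the median was 1.24. Lamp3, a protein of the lamellar bodies in which surfactant is stored, had 18.6 in PT and 680.1 in Lung met, a quotient of 36.5. Napsa, a protease that processes surfactant protein B, had 27.1 in PT and 347 in Lung met. Sftpd, a lung collectin, had 1213 in PT and 2804 in Lung met, a quotient of 2.31. The defining surfactant genes Sftpc, Sftpb and Sftpa1, and the factor Nkx2-1, have no row in this table, and were not analysed here. Abca3, the lipid transporter of lamellar bodies, stood at 0.986. Airway genes had few rows: 3 of 12 listed, of which the retinaldehyde dehydrogenase gene Aldh1a1 (67.1 in PT and 756 in Lung met) and the club cell cytochrome gene Cyp2f2 (28.4 in PT and 204 in Lung met) were past 2-fold. Among channel genes 6 of 17 were past 2-fold higher, among them Scnn1a, a subunit of the epithelial sodium channel that clears fluid from alveoli, with 117 in PT and 591 in Lung met.

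Endothelial genes were higher in Lung met as a group, by less than the alveolar ones. Every one of the 16 pan-endothelial genes had a quotient above 1, 3 were past 2-fold, and the median was 0.73. Pecam1, the adhesion molecule CD31, had 1184 in PT and 1742 in Lung met, a quotient of 1.47. Tek, the angiopoietin receptor TIE2, had 109 in PT and 286 in Lung met, and Ptprb, a phosphatase that acts on it, had 453 in PT and 1284 in Lung met. Angpt1, a ligand of TIE2, had 209 in PT and 745 in Lung met, a quotient of 3.57, whereas Angpt2 stood at 0.932. Of the genes that mark lung capillaries, 6 of 15 were past 2-fold, with a median of 0.73. Foxf1, a transcription factor of lung mesoderm and endothelium, had 4.26 in PT and 79.8 in Lung met, a quotient of 18.7. Gpihbp1, which holds lipoprotein lipase on capillary walls, had 350.5 in PT and 802 in Lung met. The endothelin receptor gene Ednrb, of the same list, was on the other side of 1, at 0.740.

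Genes of coagulation and platelet adhesion had 5 of 23 past 2-fold higher, 1 lower and a median of 0.19, or 0.32 at an average mean of at least 50. Vwf, the von Willebrand factor that tethers platelets to injured vessels, had 65.2 in PT and 611 in Lung met, a quotient of 9.36. Icam1, which leukocytes bind through beta-2 integrins, had 209.9 in PT and 855 in Lung met, a quotient of 4.07. Itgb2, the beta-2 integrin chain, had 434 in PT and 716 in Lung met, a quotient of 1.65, short of 2-fold. Pcdh17, a non-clustered protocadherin, had 41.1 in PT and 191 in Lung met, a quotient of 4.65, while Pcdh19 stood at 0.301. F13a1, the A chain of the clot-crosslinking factor XIII, made also by macrophages, was lower, with 988 in PT and 338 in Lung met.

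Cyclic nucleotide genes, many of them used by vessel walls, had 6 of 23 members past 2-fold higher and none lower. Calcrl, the receptor for adrenomedullin and calcitonin gene-related peptide, had 279 in PT and 1098 in Lung met. Both chains of soluble guanylate cyclase, the nitric oxide receptor, had alike quotients, 2.56 for Gucy1a1 and 2.57 for Gucy1b1. Pde5a, the phosphodiesterase that breaks down cyclic GMP, stood at 2.08. The scaffold gene Akap5 (9.97) is also a member of the type 1 alveolar list.

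**Figure D2:**
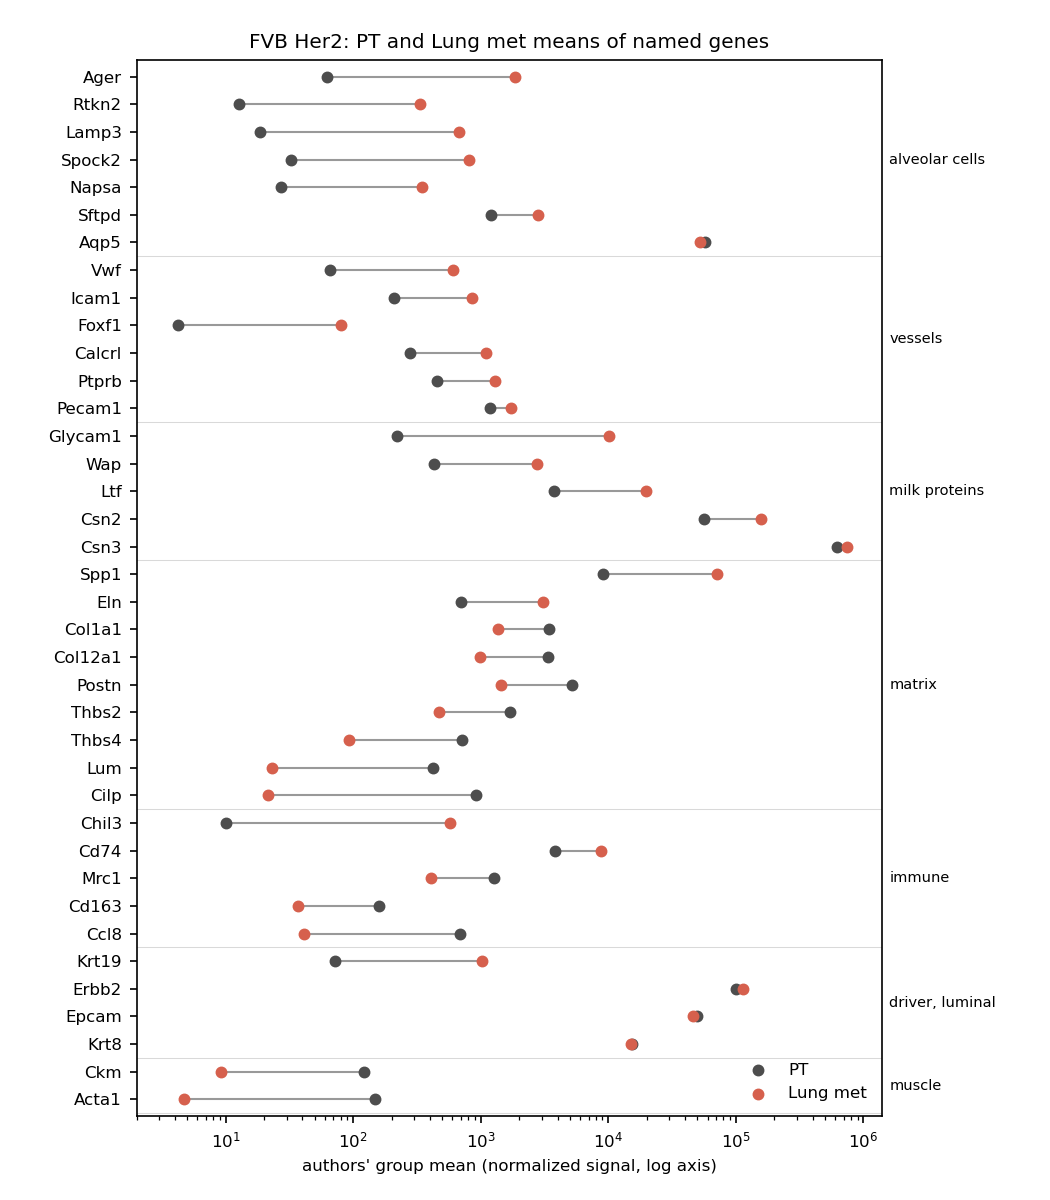
PT mean (grey) and Lung met mean (red) of named genes in FVB Her2, each a group mean of the authors with no error bar, on a log axis and grouped by the role of the genes. Among the genes drawn, alveolar, vessel and milk protein genes lie to the right in Lung met except Aqp5, and most matrix genes to the left. Erbb2, Epcam and Krt8 nearly coincide. The genes drawn are a selection and do not stand for whole lists. Abca3, Angpt2 and Ednrb had lower Lung met means, and the matrix genes Bgn, Thbs1, Mfap4, Lama3 and Lamb3 higher ones. Medians were positive for the matricellular, elastic fiber and basement membrane lists. They were negative for the collagen, small proteoglycan and metalloproteinase lists.

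Matrix of the fibrous stroma was lower in Lung met. Of 17 fibrillar and fibril-associated collagens with a value, 7 (41.2% against 1.43% of all genes) were at least 2-fold lower, none was 2-fold higher, and the median was -0.69. Col1a1 and Col1a2, the 2 chains of type I collagen, had quotients of 0.396 and 0.457, the first with 3457 in PT and 1369 in Lung met. Col3a1, the type III chain, had 9291 in PT and 3886 in Lung met. Col12a1, which decorates type I fibrils, had 3347 in PT and 995 in Lung met, the lowest quotient of the list at 0.297. Cartilage-type collagens, made at high mean in both tissues, were nearer to 1: Col9a1 stood at 0.868 and Col11a1 at 0.821. The enzymes that process and crosslink collagen did not pass 2-fold in either direction (20 genes, median -0.18), and Lox, the lysyl oxidase, stood at 0.707.

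Small proteoglycans and matricellular proteins included some of the lowest quotients of the table. Lum, the collagen-binding proteoglycan lumican, had 419.8 in PT and 23.3 in Lung met, a quotient of 0.0555. Dcn, decorin, had 854 in PT and 267 in Lung met, whereas Bgn, biglycan, had 3614 in PT and 3818 in Lung met, a quotient of 1.06. Cilp (chr9:65265180-65280605), a matrix protein first known from cartilage, had 923 in PT and 21.5 in Lung met, a quotient of 0.0233. Thbs4 and Thbs2, thrombospondins of connective tissue, had quotients of 0.130 and 0.281, but Thbs1 had 20177 in PT and 25166 in Lung met. Postn, periostin, had 5183 in PT and 1453 in Lung met. In the opposite direction Spp1, osteopontin, a phosphoprotein ligand of integrins, had 9047 in PT and 71448 in Lung met, a quotient of 7.90. In the list of thrombospondins, tenascins and matricellular proteins, 2 of 18 genes with a value were thus past 2-fold higher and 5 lower. Its median was 0.29, and 10 of the 18 had a quotient above 1, so the list was not lower as a whole.

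The elastic fiber genes were divided as well. Eln, the elastin of stretchable tissue, had 697 in PT and 3098 in Lung met, a quotient of 4.45, and Mfap4, a protein bound to elastic fibers, had a quotient of 3.07. Fbn2, a fibrillin, had 83.2 in PT and 3.18 in Lung met, so its Lung met mean was near the lowest of the table, while Fbn1 stood at 0.668. Among basement membrane genes 3 were higher and 2 lower of 22, with a median of 0.03. Lama3 and Lamb3, chains of laminin-332, which anchors epithelium, had quotients of 4.66 and 2.11, and Lama2, the laminin chain of muscle and nerve, stood at 0.486. Of the proteases, the macrophage elastase gene Mmp12 had 241 in PT and 786 in Lung met and the stromal gelatinase gene Mmp2 had 1516 in PT and 475 in Lung met.

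Fibroblast markers were lower in part. Of 15 genes for cancer-associated fibroblasts 7 were at least 2-fold lower and 1, Pdpn, which type 1 alveolar cells also make, was higher, with a median of -0.31. Thy1, a surface marker of fibroblasts, had 557 in PT and 129.6 in Lung met, and Fap, a fibroblast-surface protease, had 125 in PT and 39.9 in Lung met. The receptor genes Pdgfra and Pdgfrb, common to fibroblasts, were not lower, the first at 1.44 and the other at 1.05. Acta2, the smooth muscle actin of contractile cells, stood at 1.39. The summed mean of the 15 markers was 15046 in PT and 12365 in Lung met. Skeletal muscle genes were lower too, 4 of 5 with a value (of 12 listed): Acta1, skeletal actin, had 149 in PT and 4.69 in Lung met and Ckm, muscle creatine kinase, had 121 in PT and 9.27 in Lung met. The developmental factor Tbx15, active in limb and trunk mesenchyme, was another of the lowest, with 108 in PT and 6.72 in Lung met. What part these cell types have in the matrix values was not tested.

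Immune genes divided by cell type. Of 7 alveolar macrophage genes 5 were at least 2-fold higher (median 1.96, or 1.12 with a pseudocount of 10), out of 12 listed, and 4 of the 7 had an average mean of at least 50: Chil3, a chitinase-like protein, had 10.0 in PT and 572 in Lung met, a quotient of 57.0, and Siglecf, a sialic acid receptor, was at a low level, with 2.77 in PT and 17.7 in Lung met. General macrophage genes were not higher, with 3 of 14 at least 2-fold lower and a median of -0.37. Mrc1, the mannose receptor CD206, had 1275 in PT and 408 in Lung met, and Cd163, the hemoglobin scavenger receptor, had 159 in PT and 37.1 in Lung met. Csf1r, the receptor that macrophages need to survive, stood at 0.756. Ccl8, a chemokine of tissue macrophages, had 692 in PT and 41.1 in Lung met, a quotient of 0.0594.

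Some neutrophil and class II antigen-presentation genes had higher means in Lung met. For neutrophils and mast cells 4 of 7 with a value (of 13 listed) were past 2-fold (median 2.05), among them S100a8 and S100a9, the calprotectin chains, at 4.13 and 5.55, and the chemokine receptor gene Cxcr2, which was low in both tissues (3.82 in PT and 21.0 in Lung met). The neutrophil median was 0.30 over members with an average mean of at least 50 and 1.17 with a pseudocount of 10. Class II antigen presentation had 4 of 14 past 2-fold higher, 5 with a quotient below 1 and a median of 0.45. Cd74, the invariant chain, had 3827 in PT and 8758 in Lung met, and the class II chains H2-Aa and H2-Ab1 had quotients of 2.06 and 2.08. Class I genes were near 1, with none of 16 past 2-fold and a median of -0.13. T and natural killer cell genes had 1 of 11 past 2-fold higher and none lower, with 6 quotients above 1 and 5 below. Their median was 0.0032, which was -0.19 at an average mean of at least 50. Gzmb, a granzyme of killer cells, had the lowest quotient of the list at 0.598. Interferon-stimulated genes had a median of -0.23 over 26 genes, with 1, Ifi27l2a, at least 2-fold lower (957 in PT and 462 in Lung met). Within complement, Hc, which encodes C5, had 16.3 in PT and 415 in Lung met, a quotient of 25.4, while the C1q chains stood between 0.774 and 0.851.

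Few genes of proliferation and core metabolism were past 2-fold, a line that few genes of high level pass. None of 38 cell cycle genes was past 2-fold, but 36 of them had a quotient below 1, and the median was -0.26. Over all genes in bins 4 and 5, those of highest level, the 5th percentile of the log2 quotient was -0.27 and -0.24. Mki67, the proliferation antigen, had 9045 in PT and 8004 in Lung met, a quotient of 0.885. Ccnd1, the cyclin that ERBB signaling is known to induce, had 14666 in PT and 10234 in Lung met, the lowest quotient of the list at 0.698. None of 45 ribosomal protein genes and none of 37 oxidative phosphorylation genes passed 2-fold, with medians of -0.049 and -0.083. Quotients below 1 were found for 34 of the ribosomal protein and 35 of the oxidative phosphorylation genes. Hypoxia and glycolysis genes had a median of 0.19, and Ndrg1, a stress-response gene, the largest quotient among them at 1.77. Of 25 genes for fatty acid synthesis and storage 1 passed, Fabp3, a fatty acid binding protein of muscle and mammary gland, with 78.7 in PT and 251 in Lung met.

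In the TGF-beta and BMP list 3 of 25 were past 2-fold higher, led by the ligand gene Bmp5 (21.3 in PT and 197 in Lung met) and by Id1, a target of BMP signaling (97.7 in PT and 283 in Lung met). Wnt genes had a median of 0.59 and 2 of 17 past 2-fold, one of them the ligand gene Wnt5b (370.2 in PT and 797 in Lung met). Axin2, a feedback target of Wnt signaling, stood just short of the line, with 18.7 in PT and 36.1 in Lung met. Notch genes had 1 of 19 past 2-fold, Heyl, a target of the pathway in vessel walls, at 2.21. Axon guidance genes had Robo2 and Sema3a above, at 7.57 and 6.39, and the related receptor gene Robo1 below, at 0.276. Hox genes, which set position along the body, had 3 of 11 past 2-fold higher, and Hoxa5, a regulator of lung development, had 46.4 in PT and 107 in Lung met. Fn1, fibronectin, the sole gene of the transition and cadherin list past 2-fold higher, had 4038 in PT and 8168 in Lung met, and Vim, vimentin, stood at 0.612.

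Smooth muscle and pericyte genes had 2 of 16 higher and none lower (median 0.41), Actg2, an actin of visceral smooth muscle, standing at 2.74. Lung mesenchyme had 2 of 10 higher and 1 lower (median 0.38), the lower one being Vegfd, a lymphatic growth factor, at 0.396. Lymphatic endothelium had 2 of 6 higher and 1 lower (median 0.15), with Lyve1, a hyaluronan receptor, at 3.69. Fat cells were hardly represented in the table, with 5 of 12 genes, 1 of them lower, the lipid droplet gene Plin4 (117 in PT and 29.8 in Lung met), and a median of 0.091, which was -0.067 at an average mean of at least 50. Nerve and Schwann cell genes had 2 of 7 lower (median -0.12), one of them the adhesion gene Ncam1 at 0.312. Erythroid and platelet genes had 1 of 9 higher and 1 lower (median 0.81), Ppbp and Pf4, both platelet chemokines, at 2.04 and 0.463. B and plasma cell genes had 1 of 3 higher and a median of 0.22.

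Among the remaining pathways, integrins had 2 of 26 higher and 1 lower (median 0.26), Itga2, a collagen receptor chain, at 2.19 and Itga11, another one, at 0.348. Chemokines and their receptors had 2 of 28 higher and 3 lower (median 0.14), the neutrophil attractant gene Cxcl1 at 2.09 and the interferon-gamma target Cxcl9 at 0.449. Insulin-like growth factor genes had 2 of 14 higher and 1 lower (median 0.24), Igfbp2 and Igfbp4, both binding proteins, at 2.25 and 0.491. Retinoic acid genes had 1 of 13 higher and 1 lower (median 0.10), the lower one Cyp26b1, which degrades retinoic acid, at 0.457. VEGF, angiopoietin and apelin genes had 2 of 17 higher and 1 lower (median 0.47). Patterning factors of lung and mammary gland were divided evenly, 4 of 13 higher and 4 lower (median -0.19, or -0.31 at an average mean of at least 50), Gata6, a factor of lung development, at 4.67 and Msx1, a mesenchymal homeobox factor, at 0.258. Metalloproteinases and their inhibitors had 2 of 15 higher and 2 lower (median -0.20), complement 3 of 20 higher (median -0.14), and the small proteoglycans 3 of 9 lower (median -0.30, or -0.16 at an average mean of at least 50). A gene can belong to several lists, so their counts are not independent.

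Several of the most extreme quotients belong to annotations that are hard to interpret. Among genes with an average mean of at least 50, the 5 largest quotients were those of the processed pseudogenes Gm12657, Gm15583, Gm7432 and Gm10182 and of the unresolved transcript A930005N03Rik. Gm12657 had 0.754 in PT and 6803 in Lung met, and a pseudogene can take reads of a near-identical copy, so these values are uncertain. Rsc1a1 (66.9 in PT and 2938 in Lung met) lies within Ddi2 on the same strand, and reads of overlapping genes can be assigned to either, while Ddi2 itself had a quotient of 1.07. Lgi3, a secreted leucine-rich repeat protein, had 4.40 in PT and 199.6 in Lung met, a quotient of 45.3. At the other end, beside genes already given, were Gm44002 (an unresolved transcript, 106 in PT and 2.27 in Lung met), C1qtnf3, a secreted protein of the C1q and TNF family (187 in PT and 8.16 in Lung met), Adam23, a membrane protein of the ADAM family (136 in PT and 13.6 in Lung met), and H19, an imprinted noncoding RNA (444 in PT and 49.0 in Lung met).

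Comparison with the other models was limited to quotients, because each table was normalized separately. In C3Tag 7.42% of genes were at least 2-fold higher in Lung met and 1.7% lower, in BALB 2.26% and 2.4%, and in SEAGN 2.86% and 3.22%. Alveolar genes were higher in all 4 models, and Her2 had the smallest medians: for type 1 cells 1.68 against 2.45, 1.91 and 2.15 in C3Tag, BALB and SEAGN, and for type 2 cells 1.24 against 2.67, 2.14 and 1.63. For the fibrillar collagens the Her2 median (-0.69) was close to those of BALB (-0.75) and SEAGN (-0.77), with C3Tag at -0.12. Taken as the summed Lung met mean over the summed PT mean, Her2 (0.754) was instead nearest to C3Tag (0.785). That summed quotient was 0.470 in BALB and 0.272 in SEAGN. None of these differences between models was tested.

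For several lists the Her2 median was the lowest or the highest of the 4. Its macrophage median (-0.37) was below those of C3Tag (0.23), BALB (-0.045) and SEAGN (0.03), and Mrc1, at 0.320 in Her2, stood at 1.73, 0.768 and 0.758. The basal and myoepithelial list, which shares members with smooth muscle, had a median of 0.78 in Her2 (0.50 at an average mean of at least 50) against -0.21, 0.015 and 0.098. Wnt genes had one of 0.59 (0.36 with a pseudocount of 10) against 0.12, 0.0055 and -0.52. The Wnt members with a row numbered 17 in Her2, 22 in C3Tag and 16 in each PyMT-F1 cross, so the medians are over different genes. The values in brackets were computed for Her2 alone and are not like for like with the others. Milk protein genes had medians above 0 in other models too, 1.17 over 7 genes in BALB and 0.89 over 9 in SEAGN. In C3Tag the median was -0.15 over the 4 that had a row. All 12 had a row in Her2, so these medians are over different genes as well. In SEAGN 4 of the 9 were at least 2-fold higher and 1 at least 2-fold lower. Cell cycle genes were below 0 in both FVB driver models (-0.26 in Her2 and -0.48 in C3Tag) and above it in both PyMT-F1 crosses (0.11 and 0.23). C3Tag shares the FVB strain and the surgical removal of PTs with Her2. It differs in both the driver and the promoter of the transgene, which cannot be told apart. In the PyMT-F1 crosses the driver, the strain and the collection of PTs all differ from Her2 and cannot be told apart.

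**Figure D3:**
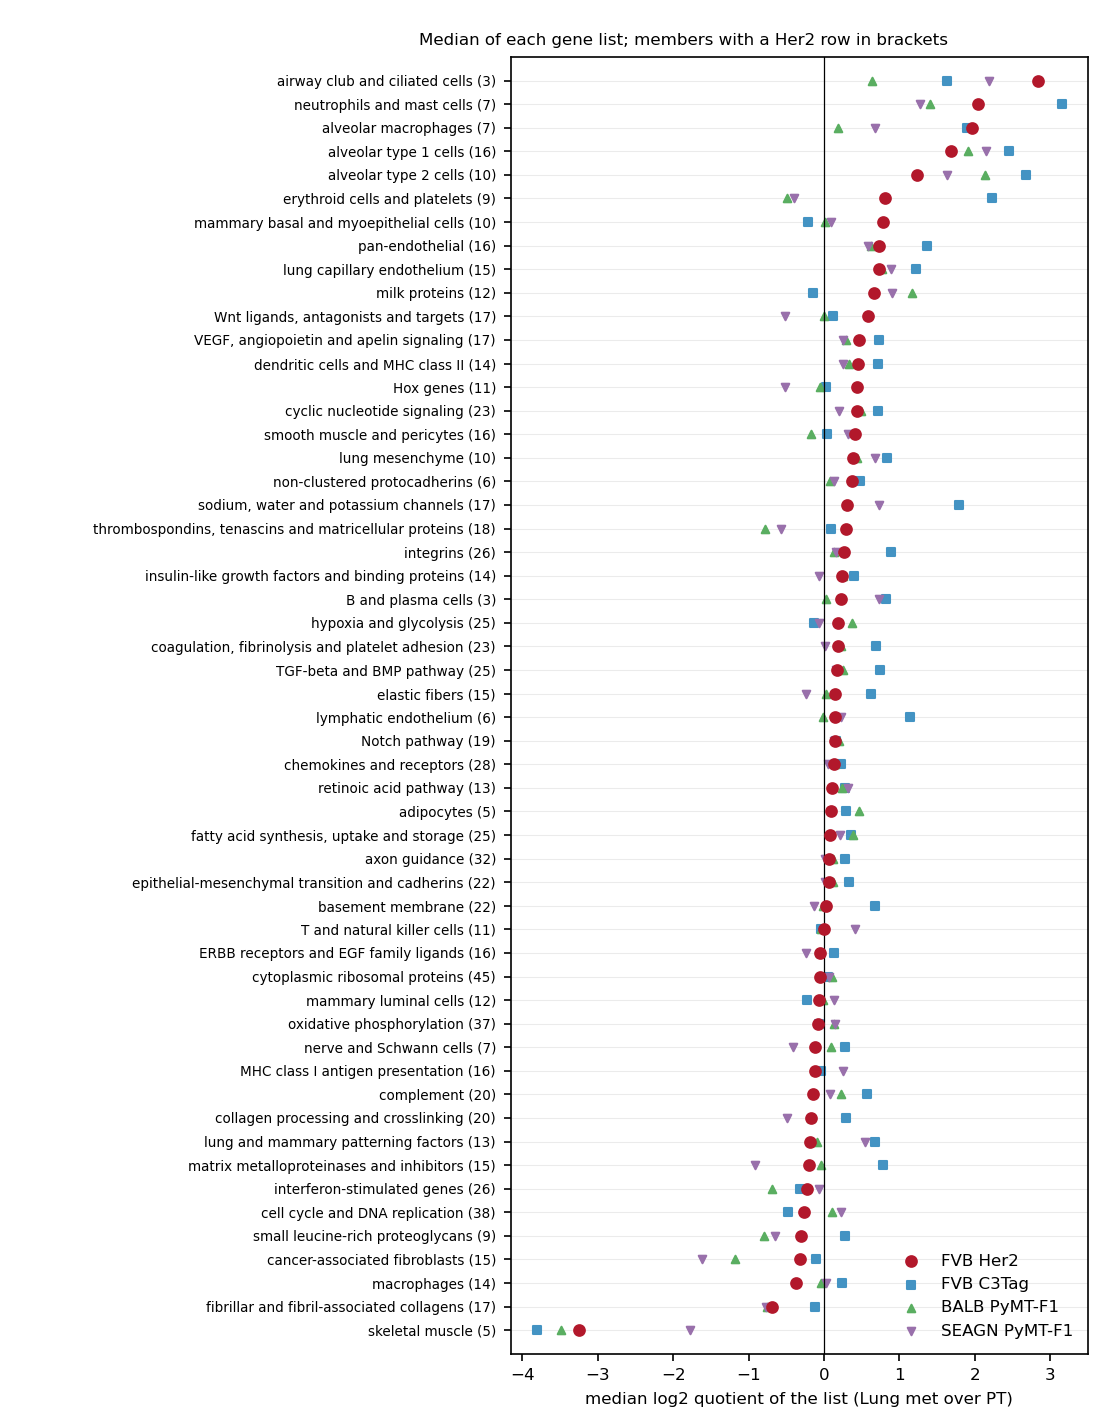
Median log2 quotient of each of the 54 gene lists in FVB Her2 (large red circles), FVB C3Tag, BALB PyMT-F1 and SEAGN PyMT-F1, ordered by the Her2 value, with no error bars because no sample values entered. Alveolar type 1 genes lie right of 0 in every model, while the Her2 macrophage median of -0.37 is the lowest of the 4.

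Single genes that were past 2-fold in Her2 and whose log2 quotient lay within 0.32 of 0, or past it in the other direction, in the other 3 models numbered 15 of the 165 past 2-fold among the 9733 genes with an average mean of at least 50 in all 4 tables. Of these, 9 were higher and 6 lower. This set is defined by these quotients, so its values are a description. FVB Myc and AKR PyMT-F1 were not used, so the set is not shown to be particular to Her2 within the series. Trpm6, a magnesium-permeable channel kinase, had 15.5 in PT and 166 in Lung met, a quotient of 10.7, against 0.866, 1.09 and 0.759 in C3Tag, BALB and SEAGN. Fgfr3, a fibroblast growth factor receptor, had 23.0 in PT and 148 in Lung met, a quotient of 6.44, against 0.633, 1.01 and 0.937. Both were low in PT. Anxa8, an annexin, was also low in PT, with 23.1 in PT and 86.6 in Lung met, and stood at 3.75. Adat3, a subunit of a tRNA deaminase whose gene overlaps Scamp4 on the same strand, stood at 3.98.

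The higher set also held Bhlhe41, a transcription factor of the circadian clock (2.44), Ptger2, a prostaglandin E2 receptor (2.36), and Smoc1, a calcium-binding matrix protein, at 2.24 in Her2 but 0.361 in BALB and 0.539 in SEAGN. Wnt5b stood at 2.15, against 0.530 in SEAGN, and Nqo1, a quinone reductase, at 2.04. In the lower set H19 (chr7:142575529-142578143) had the smallest quotient, 0.110, against 1.13, 2.21 and 1.45. Matn2, a matrix adaptor protein, stood at 0.346 in Her2 and 2.17 in C3Tag, and Pglyrp1, a peptidoglycan-binding protein, at 0.492 and 2.01. Mt2, a metallothionein, Pcdhgb6, a clustered protocadherin, and Gm8797 completed it, at 0.489, 0.489 and 0.372.

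**Figure D4:**
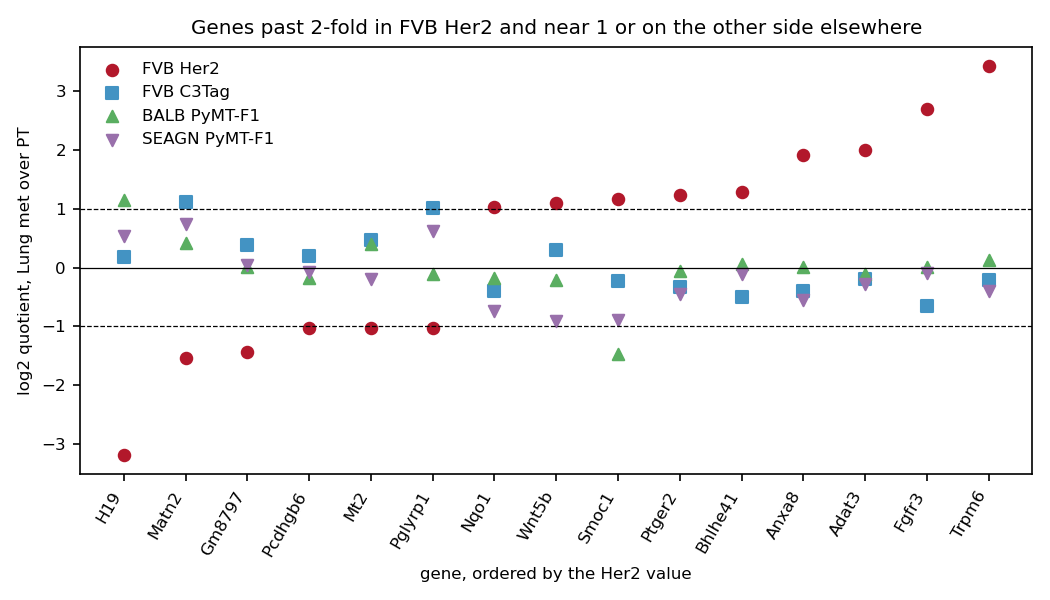
Log2 quotient in each of 4 models for the 15 genes past 2-fold in FVB Her2 and near 1 or on the other side of 1 elsewhere, ordered by the Her2 value, with dashed lines at 2-fold. The Her2 points run from -3.18 for H19 to 3.42 for Trpm6 and were selected to stand apart, while the other models lie nearer to 0 or on the other side.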

How the data were processed

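RNA was sequenced from 6 PTs and 6 Lung mets of FVB Her2. Alignment, counting per gene and normalization were done by the authors in Partek Flow, the normalization method is not given in the sources used here, and they deposited a least-squares mean of each tissue, used here as a signal with no SD. The sources disagree on the genome (mm9, mm10 or mm39) and library kit (mRNA or Ribo-Zero total RNA), and the submitters' processing notes name STAR 2.7.8a and DESeq2, while the methods name Gene Specific Analysis for this model. The deposited tables also hold p-values, FDR, ratios and fold changes of the authors' own comparison. None was used, so there is no test. The AKR and Myc tables were not used.

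Quotients of means were computed over all genes in Python 3.11.15 (numpy 2.4.6, pandas 2.3.3, matplotlib 3.10.9), with no filter on level. The code was run on Lung met means made from the PT means by known factors, with no noise. That checks the arithmetic only. Symbols occurring once were joined between tables. Depth per sample is unknown, so no interval was computed. Coordinates are from GENCODE M21, which holds 18155 of the Her2 identifiers and lacks 53. Members and lists (54 lists, 22 of cell types and 32 of pathways) were chosen with earlier results of these data known. Named genes were the 10 largest and 10 smallest quotients at an average mean of at least 50, up to 4 members of each list past 2-fold each way or else its highest mean, genes past 2-fold in Her2 and near 1 or on the other side in the 3 other models used, the ERBB genes, and Pcdh17, Icam1, Vwf and Itgb2. Not every list member past 2-fold is named, and those named are not always the ones with the largest quotients. Other genes, and both motifs searched, were chosen after their values were seen. Alternatives were a level filter, a pseudocount of 10, centring and other folds. 1 gene is not reported here.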

Additional observations from a re-analysis of the deposited data

How the results depend on the processing

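The number of genes past the fold depended on level and on the fold. As a share of all 18208 genes, those higher in Lung met went from 2.38% (434) to 1.22% (222) with an average mean of at least 50, and those lower from 1.43% (260) to 0.813% (148). With a pseudocount of 10 the shares were 1.58% (287) and 0.983% (179), and after centring on the median of genes above that level 2.4% (437) and 1.41% (257). At 1.5-fold they were 5.42% (986) and 3.62% (660), and at 4-fold 0.676% and 0.28%. The median log2 quotient moved by 0.1 or more in 13 of 54 lists with the level filter, in 8 with the pseudocount and in none with centring. With the level filter 2 small medians changed sign, adipocytes from 0.091 to -0.067 and T and natural killer cells from 0.0032 to -0.19. Of 45 named genes, 33 log2 quotients moved by 0.1 or more with the pseudocount, which makes the largest quotients smaller: Lgi3 went from 5.50 to 3.86, Chil3 from 5.83 to 4.86, Col4a3 from 5.60 to 4.46 and Gm12657 from 13.14 to 9.31. The number of list members past the fold moved by over 1.5 times in 26 of 54 lists at 1.5-fold and in 40 at 4-fold. Genes past 2-fold in Her2 and near 1 elsewhere numbered 15 (9 higher and 6 lower) and, with near set at 0.58 in place of 0.32 on the log2 scale, 25 (15 and 10). No paired analysis was possible because the tables hold 1 mean per tissue and no sample, although the same animals gave PT and Lung met. For the same reason leaving out each replicate was not run, and depth is unknown.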

Other observations

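H19 led to a look at other imprinted genes, of which the set was chosen after the values were seen and has no test. The noncoding RNAs of the Meg3 cluster were lower in Her2 Lung met: Meg3 had 224 in PT and 33.0 in Lung met, a quotient of 0.148, and Rian had 307 in PT and 54.9 in Lung met, a quotient of 0.179. In BALB their quotients were 0.265 and 0.318, and in SEAGN 0.145 and 0.162. C3Tag differed, with a Meg3 quotient of 11.2 and a Rian quotient of 16.8. Some other genes of this set were near 1 in Her2, with Igf2r at 1.00, Peg3 at 1.26, Grb10 at 0.922 and Kcnq1ot1 at 1.13. In contrast Ndn, at low level, stood at 0.387, and Dcn, given above and also in this set, was past 2-fold lower. The remaining members of the set are not described here.

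Hemoglobin genes, which report red blood cells in the piece, had closely alike quotients in Her2: Hbb-bs stood at 1.80, Hba-a1 at 1.77, Hbb-bt at 1.76 and Hba-a2 at 1.73. Their copies are near-identical, so how reads were split among them is uncertain. Jchain, the joining chain of secreted antibodies, had 23.6 in PT and 159 in Lung met, a quotient of 6.74.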
